A study of Mus musculus with 18 samples.

Results

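Regulatory T cells (Treg) of control mice were described by the level of each gene, its place in the order of all genes and its spread between libraries. The cells carried the Foxp3-YFP-cre allele alone, labelled wild type, with no floxed gene. They came from male mice aged 6 to 8 weeks, were enriched on a CD4 column and were sorted on the yellow fluorescent protein (YFP) of that allele. The members are the 3 wild-type libraries of 18 in the series. The other 5 groups carry the same cre allele with a floxed Mef2d, Mef2c, HDAC1, HDAC2 or Dyrk1 gene and were not compared here. The cre allele is thus present in every group, and the wild-type libraries have no counterpart without it. The growth protocol also speaks of Rcor1 knockout mice, while no group is labelled so. Each gene's level is given in FPKM, fragments scaled by gene length and by sequencing depth, so that levels of different genes can be set side by side per length. Where 3 levels follow each other they belong to replicates 1, 2 and 3, which have no order among themselves.

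Treg are a class of CD4+ T cells set by the factor Foxp3, and they keep other immune responses in check. They bind interleukin 2 through a receptor whose alpha chain is encoded by Il2ra, remove costimulatory ligands from antigen-presenting cells through Ctla4, and mostly leave interleukin 2 production to other T cells. The T cell receptor signals through the kinases Lck and Zap70 towards the factor families NFAT, NF-kB and AP-1 (the Jun and Fos proteins). Many of the proteins involved belong to families of paralogs, genes that arose by duplication, and a cell type often uses some paralogs of a family and leaves others silent.

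The estimated depth was 20.6, 19.9 and 18.5 M reads in replicates 1, 2 and 3, and the summed levels were 478880, 487999 and 493453 FPKM. At that depth 1 FPKM on a gene of 2000 bases stood for 41.2, 39.8 and 37.1 reads, and 3 reads on such a gene for 0.0728 to 0.0809 FPKM. Of 35275 gene identifiers, 14669 were listed at 0 in all 3 libraries and 10903 (30.9%) reached 1 FPKM in each. Among 21397 protein-coding genes, 9946 (46.5%) reached 1 FPKM in all 3 libraries, 5474 (25.6%) reached 10 FPKM and 537 (2.51%) reached 100 FPKM. Between pairs of libraries, 0.798% to 1.55% of the 10903 expressed genes differed by over 2-fold, the median absolute log2 difference was 0.11 to 0.14, and Spearman's rho across genes was 0.981 to 0.987 (genes are not independent replicates). The median coefficient of variation was 11.2% for genes averaging 1 to 10 FPKM, 6.84% from 10 to 100 FPKM, 6.75% from 100 to 1000 FPKM and 4.33% above that. Read counting alone would give medians of 5.72%, 2.26%, 0.961% and 0.414% in these classes.

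The sorted population carried the markers of Treg in every library. Foxp3 (ENSMUSG00000039521, chromosome X, 7573644 to 7595245, mm10) was at 92.7, 106 and 87.95 FPKM, a mean of 95.6 ± 9.401 FPKM (SD, n = 3), in place 627 among protein-coding genes; the cells were sorted on its reporter. Ctla4, an inhibitory receptor of the CD28 family (ENSMUSG00000026011, chromosome 1, 60887000 to 60915832), was the most abundant of the 4 defining markers, at 203, 246 and 176 FPKM, in place 252. Il2ra (ENSMUSG00000026770, chromosome 2, 11642807 to 11693193) was at 137, 145 and 129.5 FPKM, in place 391. Ikzf2, the Ikaros-family factor also called Helios (ENSMUSG00000025997, chromosome 1, 69531214 to 69687245), was at 51.1, 50.6 and 40.6 FPKM, in place 1441. All 4 markers had their lowest value in replicate 3, where 36.8% of all genes averaging 1 FPKM or more were lowest. For these markers the highest library was 1.12 to 1.40 times the lowest. The share of protein-coding genes at 100 FPKM or more was 2.51%, and Ctla4 and Il2ra were among them in all 3 libraries. All 25 measured Treg-associated genes reached 1 FPKM in each library, and so did all 12 T cell genes, beside 46.5% of all protein-coding genes. Of these 25 Treg-associated genes, 8 were lowest in replicate 3. The T cell receptor complex was read at 522, 538 and 524 FPKM for Cd3g and 282, 333 and 294 FPKM for Cd3e. The coreceptor Cd4, on which the cells were enriched, was at 243, 237 and 225 FPKM.

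Markers of other blood cells covered a wide range of levels, and some differed between the libraries. Of the 11 measured B cell markers 6 reached 1 FPKM in all 3 libraries, of the 8 plasma cell markers 7, of the 8 NK cell markers 6, of the 12 myeloid and dendritic markers 3, of the 7 granulocyte markers 2 and of the 5 platelet markers 0, beside 46.5% of all protein-coding genes. The summed level of the 8 plasma cell markers was 1774, 5058 and 1869 FPKM, against 485, 549 and 434 FPKM for the 4 defining Treg markers. Ms4a1, which encodes CD20, was at 0.631, 1.47 and 3.46 FPKM. Ighm, the constant region of immunoglobulin M, was at 443, 1219 and 739 FPKM, far above the other B cell markers and above each of the 4 defining Treg markers. The CD8 coreceptor chains were at 0.651, 0.707 and 4.27 FPKM for Cd8a and 10.1, 10.2 and 13.4 FPKM for Cd8b1, so the pair was unequal in each library. Csf1r, the receptor for macrophage colony-stimulating factor, was at 1.65, 2.67 and 3.11 FPKM, and the granulocyte marker Ly6g at 0.0515, 0.694 and 0.688 FPKM. Gp1bb, a platelet glycoprotein, was listed at 0 in all 3, and 89.1% of the 150-base windows along its transcripts also occur in transcripts of another gene. Of the stromal and epithelial markers Pecam1 was at 60.2, 58.9 and 56.9 FPKM while Cdh5, a cadherin of endothelial cells, was at 0.195, 0.114 and 0.298 FPKM and Col1a1, a fibroblast collagen, at 0.564, 0.339 and 0.391 FPKM. In such bulk samples, fewer cells of a type and less RNA per cell cannot be told apart.

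**Figure D1:**
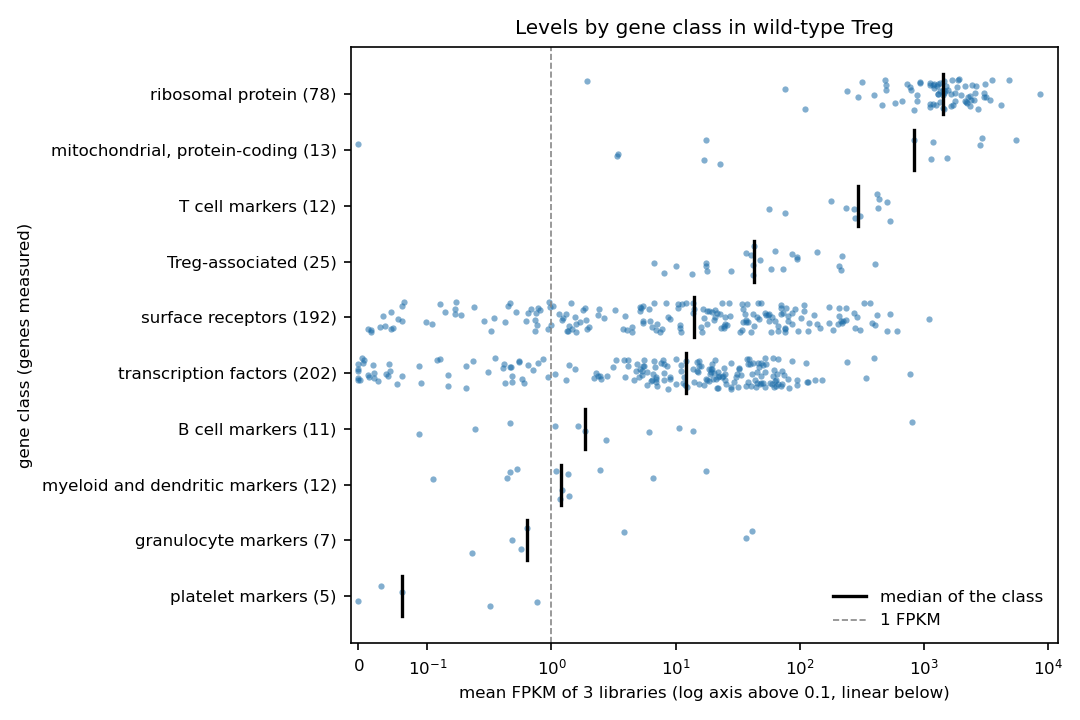
Each point is the mean FPKM of a gene over the 3 wild-type libraries, by class, with the number of genes measured in brackets and a black line at the class median. Medians were 1418 FPKM for ribosomal protein genes, 291 for T cell markers, 42.9 for Treg-associated genes, 13.9 for surface receptors, 12.1 for transcription factors, 1.85 for B cell markers and 0.0628 for platelet markers.

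The RNA was concentrated in genes of protein synthesis. The 30 most abundant protein-coding genes held 20.6 ± 0.451% of the summed FPKM (SD, n = 3), and 20 of them encode ribosomal proteins, 3 are mitochondrial and 7 belong to neither class. Of them, 29 were among the first 30 of all 3 libraries. Counted per read, with each level multiplied by exon length, the share of the first 30 was 11.8%. The 78 ribosomal protein genes together held 26.6 ± 0.640% of the summed FPKM, and 75 of them reached 100 FPKM in every library. The single most abundant gene was Rps27 (ENSMUSG00000090733), a protein of the small ribosomal subunit, at 8785, 8622 and 8294 FPKM. Rplp1, an acidic protein of the ribosomal stalk, followed among ribosomal genes at 4809, 4662 and 5069.9 FPKM, and Rps14 stood at 4294, 3781 and 4401 FPKM. At the other end of that class, Rpl24 was listed at 2.51, 2.08 and 1.195 FPKM and Rpl35 at 66.6, 89.3 and 71.7 FPKM. Of the 150-base windows along the Rpl24 transcripts, 42.8% also occur in transcripts of another gene, 53.3% of those of Rpl35 and 16.3% of those of Rps27. Over the class, the median share of such windows was 6.69% in the 11 genes under 500 FPKM, 12.1% in the 45 genes from 500 to under 2000 FPKM and 5.99% in the 22 genes at 2000 FPKM or more. The part of such shared sequence in these levels was not tested.

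Outside the ribosome, Eef1a1 led all genes of translation. Eef1a1, the elongation factor that brings aminoacyl-tRNA to the ribosome, was at 7609, 6951 and 7533 FPKM, second of all genes. Tpt1, a small growth-related protein whose mRNA is translated under the same control as ribosomal proteins, was at 3621, 3823 and 3681 FPKM. Of the actin-binding thymosins, Tmsb4x was at 3626, 4258 and 3974 FPKM, above Tpt1 in all 3 libraries, and Tmsb10 at 2476, 2953 and 2879.8 FPKM. Both were lowest in replicate 1 and highest in replicate 2. B2m, the light chain of MHC class I, was at 2421, 2786 and 2659 FPKM and H2-K1, a class I heavy chain, at 2349.7, 2700.1 and 2466 FPKM. Actb, the main cytoplasmic actin, was at 2514, 2189 and 2746 FPKM, highest in replicate 3 and lowest in replicate 2. B2m lay above H2-K1 in all 3 libraries, while Actb changed place beside them between libraries.

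Several noncoding or unusual identifiers stood among the most abundant ones. Gm42418, a long noncoding RNA on chromosome 17 (39846958 to 39848788), was at 3024, 2008 and 2344 FPKM and was highest in replicate 1. Of its 150-base windows 83.8% also occur in transcripts of another gene, and the part of this sharing in its level was not tested. Malat1, a nuclear noncoding RNA, was at 150.3, 149 and 121 FPKM, and AW112010, a noncoding RNA known from activated immune cells, at 169.5, 179 and 197 FPKM. Trbd1, a diversity segment of the T cell receptor beta locus (chromosome 6, 41533201 to 41533212), was listed at 3145, 3632 and 3178 FPKM. The segment is 12 bases long, and these values correspond to 778, 867 and 707 reads. For Trbd2, of 14 bases, the 86, 100 and 75 reads gave 298, 359 and 289 FPKM. A level per kilobase of such a segment, far shorter than a read, cannot be read as RNA abundance beside that of whole genes.

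The promoter windows of 5 genes are shown, since these genes stand at the head of the order or define the cell. They are RefSeq sequences on GRCm38.p6, each from 80 bases before to 20 bases after the annotated transcription start, with capitals marking TATAAA or, in the ribosomal protein genes, a run of at least 7 bases that are all C or T, lie whole in the window and touch the 41 bases around the start. Foxp3 has 2 starts in that table, and the window is the first listed.
Foxp3 (chrX:7579596-7579695, plus strand): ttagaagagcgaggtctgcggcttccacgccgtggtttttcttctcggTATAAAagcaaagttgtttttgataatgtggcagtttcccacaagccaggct
Junb (chr8:84978729-84978828, minus strand): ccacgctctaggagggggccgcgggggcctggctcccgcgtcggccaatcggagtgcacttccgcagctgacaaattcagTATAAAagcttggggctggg
Fos (chr12:85473810-85473909, plus strand): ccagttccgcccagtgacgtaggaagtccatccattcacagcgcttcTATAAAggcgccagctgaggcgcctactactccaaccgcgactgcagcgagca
Rps27 (chr3:90213629-90213728, minus strand): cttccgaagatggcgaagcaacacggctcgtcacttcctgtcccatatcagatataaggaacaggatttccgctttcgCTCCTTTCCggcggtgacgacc
Rpl13a (chr7:45128726-45128825, minus strand): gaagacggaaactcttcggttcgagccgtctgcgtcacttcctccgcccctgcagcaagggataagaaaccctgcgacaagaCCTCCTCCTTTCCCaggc
TATAAA began 32 bases before the start in Foxp3, 33 bases before it in Fos and at the start itself in Junb. On either strand of the 300-base promoter, TATAAA occurred in 13.6% of all 32851 RefSeq promoters, and a C or T run of that kind, on the gene's strand, in 30.6%. Among protein-coding genes averaging 1 FPKM or more, 8295 of 10214 matched a promoter, and TATAAA occurred in 7.25% of those at 1 to 10 FPKM, 5.78% at 10 to 100 FPKM and 12.8% at 100 to 1000 FPKM. The C or T run occurred in 27.7%, 27.4% and 30.9% of the same classes. For genes at 1000 FPKM or more (54 of 78 matched) and for ribosomal protein genes (58 of 78 matched) the check is void, because under 80% of the class had a promoter in the table. A match describes the letters of a window and does not show binding.

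The 13 protein-coding genes of the mitochondrial genome, which encode subunits of the respiratory chain and ATP synthase and are transcribed as long shared precursors, were listed at very unequal levels. mt-Co1, a subunit of cytochrome oxidase, was at 6114, 5491 and 4994 FPKM, and mt-Nd1, a subunit of complex I, at 3288, 2630.3 and 2905 FPKM. mt-Cytb, the cytochrome b of complex III, was at 3033, 2706 and 2687 FPKM. Against these, mt-Co2, another cytochrome oxidase subunit, was at 27.8, 19.1 and 21.8 FPKM, and mt-Co3 at 17.9, 15.6 and 17.4 FPKM. mt-Nd3 was at 4.18, 2.89 and 3.26 FPKM, and mt-Atp8 was listed at 0. The split followed how much of each gene's sequence occurs elsewhere in the annotated transcripts. The 5 genes at 2.54 to 27.8 FPKM had 97.0% to 99.8% of their 150-base windows also present in transcripts of another gene. The 7 genes at 755 to 6114 FPKM had between 0% and 59.2% of such windows. mt-Atp8 had 0% shared windows, so it does not belong to that pattern. How the authors' counting treated reads with several matches is not given in the sources used here, and its part in these levels was not tested. All 12 mitochondrial genes above 0 were highest in replicate 1, beside 25.3% of all genes averaging 1 FPKM or more, and they were so with all 3 scalings tried.

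Transcription factors covered a wide range of levels. Of 202 listed factors, 152 (75.2%) reached 1 FPKM in all 3 libraries, beside 46.5% of all protein-coding genes; the list was drawn up for factors of lymphocytes and of their families, with earlier results of these data known. Junb, an AP-1 subunit, was the most abundant at 645, 977 and 680.5 FPKM, highest in replicate 2. Ets1, a factor of lymphocyte development, followed at 413, 407 and 366 FPKM, and Tcf7, the T cell factor TCF-1, at 352, 354 and 320.1 FPKM. Klf2, which drives genes of lymphocyte recirculation, was at 226, 255 and 236 FPKM. The ranges of these 4 factors did not overlap, and they held places 1 to 4 in each library. Jund at 140.4, 161 and 154 FPKM and Fos at 119, 150.4 and 129 FPKM overlapped with each other and lay above the rest in all 3 libraries.

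From the seventh place on, the order of factors was mostly not resolved. Among the first 20, 13 of the 19 neighbouring pairs had overlapping ranges, and 17 genes were among the first 20 of every library. Nfkb1, the p105 and p50 subunit of NF-kB, was at 117, 114 and 119 FPKM and Ikzf1, the factor Ikaros, at 119, 111 and 109 FPKM. Jun was at 103, 131 and 101 FPKM. Foxp3 was in place 10 by mean and in places 10, 11 and 10 in the single libraries. Its neighbour Nr4a1, a nuclear receptor that is switched on by T cell receptor signals, was at 83.3, 121 and 81.8 FPKM and above Foxp3 in replicate 2 only. Atf4, a factor of the amino acid stress response, was at 74.9, 103 and 80.3 FPKM, Irf1, an interferon-response factor, at 72.6, 89.7 and 83.6 FPKM and Cbfb, the partner of Runx proteins, at 85.6, 76.9 and 79.9 FPKM. Myc, which promotes growth, was at 72.1, 78.6 and 74.8 FPKM. Bcl11b, needed for T cell identity, was at 75.4, 77.9 and 60.9 FPKM and fell outside the first 20 in replicate 3. Lef1, Klf13, Stat6 and Yy1 completed the first 20, with means of 66.3 to 71.8 FPKM. Satb1, a chromatin organiser, was at 59.6, 65.6 and 53.7 FPKM, and Gata3, a T cell factor, at 40.8, 42.3 and 39.8 FPKM. Gata1, best known from red blood cells, was read at 18.9, 20.9 and 20.4 FPKM, within 1.11-fold in all 3 libraries, while its relative Gata2 was at 0.01497, 0.1396 and 0.117 FPKM.

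**Figure D2:**
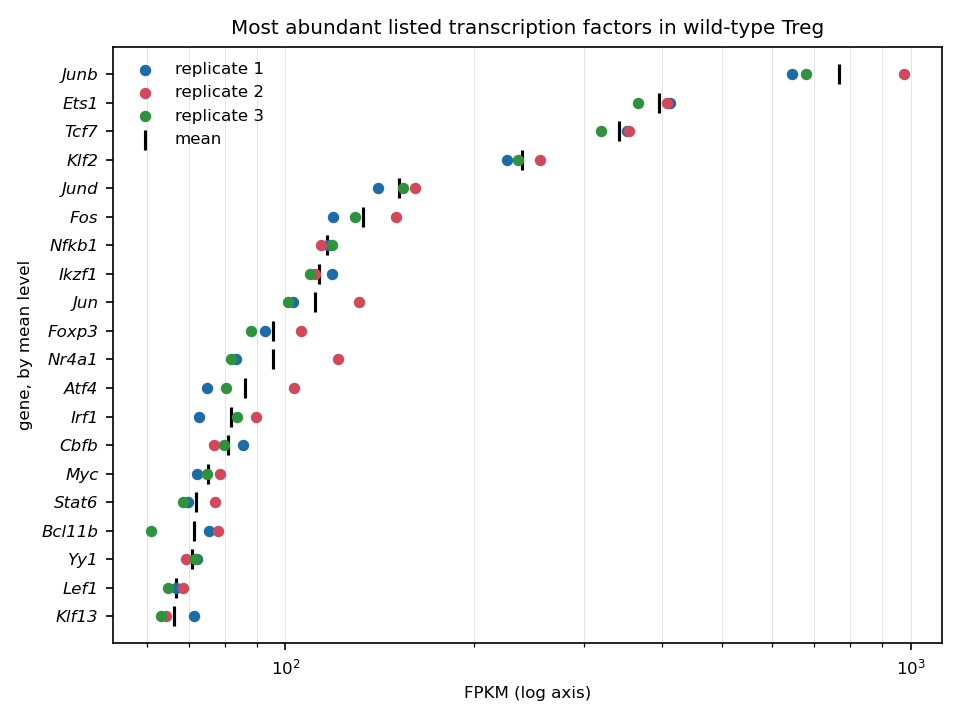
FPKM (log axis) of the 20 most abundant listed transcription factors in the 3 wild-type libraries, with the mean as a bar. The points of Junb, Ets1, Tcf7 and Klf2 do not overlap with those of any other factor shown, and from Nfkb1 down most neighbours share part of their range.

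Some factors that define other helper T cell lineages were at lower levels than the 4 defining Treg markers. Gata3, a factor of the Th2 lineage, was not among these. Its 40.8, 42.3 and 39.8 FPKM overlapped with the range of Ikzf2. Tbx21, the Th1 factor T-bet, was at 3.94, 3.29 and 5.27 FPKM and Eomes, its relative, at 5.04, 5.38 and 5.68 FPKM. Bcl6, the follicular factor, was at 6.08, 7.85 and 5.32 FPKM. None of these 3 factors exceeded 8 FPKM in any library. All 10 listed Th1 genes reached 1 FPKM in the 3 libraries, against 6 of 8 Th2 genes, 4 of 8 Th17 genes and 6 of 7 follicular genes, beside 46.5% of all protein-coding genes. The chemokine Ccl5 was the most abundant Th1 gene at 64.8, 52.5 and 64.3 FPKM, and Ifng, the Th1 cytokine, was at 5.87, 6.46 and 5.45 FPKM. Il4 was at 1.12, 1.33 and 1.43 FPKM, Il5 at 0.0631, 0.0654 and 0.0702 FPKM and Il17a at 0.414, 0.7298 and 0.138 FPKM. Il10, an anti-inflammatory cytokine made by part of the Treg, was at 7.48, 13.9 and 8.94 FPKM, highest in replicate 2. Tgfb1, the ligand that Treg hold on their surface in latent form, was at 118, 121 and 124 FPKM, and Ebi3, a subunit of interleukins 27 and 35, at 5.804, 6.57 and 7.51 FPKM. The partner subunit Il12a was at 0.0372, 0.116 and 0.248 FPKM.

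Surface receptors showed a similar breadth. Of 192 listed receptors and surface proteins, 143 (74.5%) reached 1 FPKM in all 3 libraries, beside 46.5% of protein-coding genes. Cd52, a small glycoprotein of lymphocytes, led at 1039.7, 1141 and 1130.4 FPKM, and Ly6e, a GPI-anchored protein, followed at 563, 637 and 627 FPKM. Cd3g and Cd2, an adhesion receptor at 483, 516 and 519 FPKM, held places 3 and 4 in every library. Thy1, a GPI-anchored T cell marker, was at 412, 429 and 419.6 FPKM and overlapped with Izumo1r, the folate receptor 4 of Treg, at 389, 415 and 398 FPKM. Among the first 20 receptors, 13 of the 19 neighbouring pairs overlapped, and 18 genes were among the first 20 in each library. Ctla4, in place 19 by mean, was in places 19, 14 and 22 in the single libraries.

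The interleukin 2 receptor was read at high levels in all 3 chains. The beta chain Il2rb was the highest at 382, 374 and 383 FPKM, the alpha chain Il2ra lay between 130 and 145 FPKM, and the common gamma chain Il2rg was at 113, 131 and 113 FPKM. Within each library the order was Il2rb, Il2ra, Il2rg, although Il2rg in replicate 2 exceeded Il2ra in replicate 3. Of the partners of the gamma chain, Il21r was at 91.3, 98.01 and 86.3 FPKM, Il4ra at 51.5, 55.96 and 52.6 FPKM and Il7r, the interleukin 7 receptor, at 46.8, 48.7 and 50.9 FPKM. Il15ra was at 5.61, 5.73 and 4.497 FPKM. The TNF receptor family had 14 of 17 members at 1 FPKM or more in all libraries. Tnfrsf4, which encodes OX40, led at 187, 227 and 231 FPKM and overlapped with Cd27 at 164, 193 and 157 FPKM. Tnfrsf18, the receptor GITR, was at 37.3, 48.96 and 42.5 FPKM, and Cd40, used by B cells and antigen-presenting cells, at 0.9096, 0.6397 and 1.34 FPKM.

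Receptors of the CD28 family, which tune costimulation, were all above 30 FPKM. Icos was at 84.9, 79.3 and 96.1 FPKM, Cd28 at 57.7, 59.7 and 53.3 FPKM, Pdcd1, which encodes PD-1, at 34.98, 36.2 and 39.9 FPKM and Btla at 33.6, 37.3 and 33.2 FPKM. Ctla4 took 49.0 ± 4.79% of the family's summed FPKM (SD, n = 3) and lay above Icos in all 3 libraries. Of the other inhibitory receptors Cd96 was at 81.5, 80.9 and 71.2 FPKM and Tigit at 63.3, 58.99 and 65.5 FPKM, while Havcr2, which encodes TIM-3, was at 2.78, 2.18 and 2.2005 FPKM. Among chemokine receptors the lymph node receptor Ccr7 led at 219.9, 213 and 183 FPKM. Ccr8, a receptor of Treg in barrier tissue, was at 31.01, 38.1 and 38.8 FPKM and Ccr4 at 25.3, 18.4 and 27.3 FPKM. Ccr7 was over 4 times Ccr8 in each library. Cxcr4 was at 44.8, 46.2 and 46.6 FPKM and Cxcr1, used by neutrophils, at 0, 0.104 and 0.0372 FPKM. The most abundant integrin chains were Itgb7 at 333, 315 and 329 FPKM, Itgb2 at 221, 225 and 211 FPKM and Itgal, the alpha chain of LFA-1, at 193, 187 and 177 FPKM. The alpha chains that pair with Itgb7 were lower, Itgae at 42.7, 37.9 and 39.8 FPKM and Itga4 at 38.7, 36.2 and 27.1 FPKM. Itgb8, which activates latent TGF-beta, was at 2.33, 2.58 and 2.33 FPKM. Of 12 Toll-like receptors, 7 stayed under 1 FPKM in each library, and Tlr1 was the highest at 35.8, 44.6 and 33.8 FPKM.

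**Figure D3:**
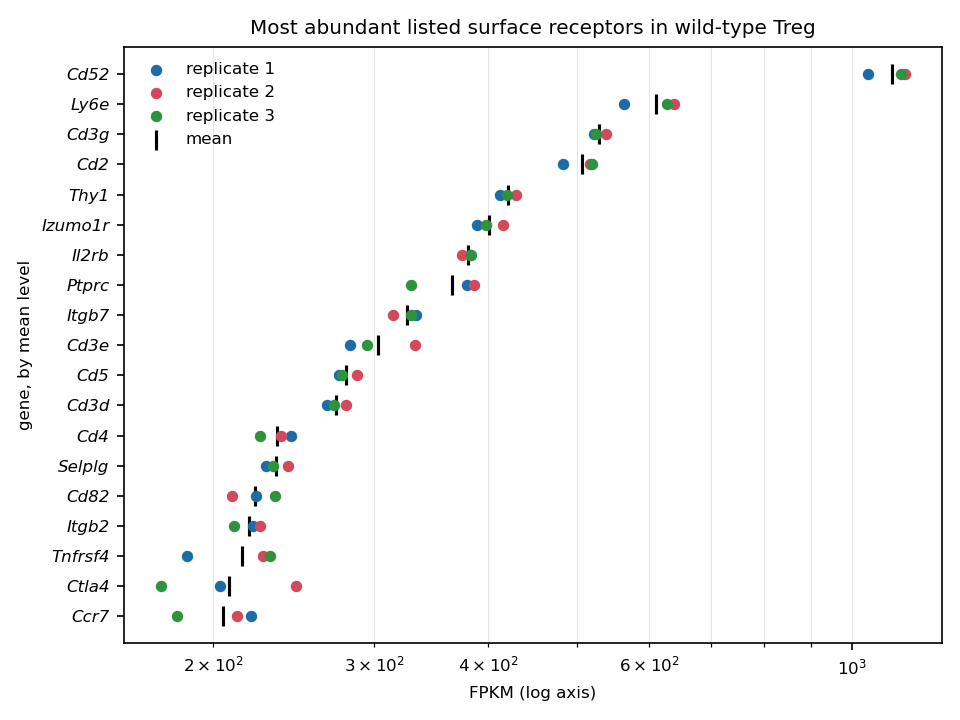
FPKM (log axis) of 19 of the 20 most abundant listed surface receptors in the 3 wild-type libraries, with the mean as a bar. Cd52 stands alone at 1040 to 1141 FPKM, and most neighbours below Thy1 share part of their range.

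Paralogs were compared within 143 families with 636 listed members, a gene in several families being counted in each. A first member was called leading where its level plus 1 FPKM was at least 4 times that of the second member, plus 1 FPKM, in every library. That held in 45 families (31.5%). In 19 families the ranges of the first and the second member overlapped, and in 134 the same member was first in all 3 libraries. The first member held at least 90% of the family's summed FPKM in 27 families, and 114 of the 636 entries stayed under 1 FPKM in all libraries. Since the first member was picked from the same values, these are descriptions without a test. With 3 libraries an exact sign-flip permutation test could not go below p = 0.25.

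In T cell receptor signalling, 1 paralog held most of the RNA at several steps. Lck, the kinase that starts the signal, was at 425, 451 and 420.1 FPKM and its relative Fyn at 140.2, 149 and 137 FPKM, a log2 ratio of 1.597 ± 0.01 (SD, n = 3). Zap70, which binds the phosphorylated receptor, was at 175, 184 and 179 FPKM, while Syk, its counterpart in B cells, was at 2.41, 3.78 and 4.31 FPKM. That log2 ratio was 5.35 ± 0.31. Of the phospholipases, Plcg1 was at 65.2, 68.3 and 59.9 FPKM and Plcg2, the B cell paralog, at 1.56, 2.29 and 3.15 FPKM. Syk and Plcg2 were both lowest in replicate 1 and highest in replicate 3, as was the B cell receptor chain Cd79a at 5.46, 12.5 and 14.2 FPKM. The part of B cell RNA in these levels was not tested. The delta catalytic subunit of PI3 kinase, Pik3cd, held 85.5 ± 0.97% of its family at 138, 151 and 127 FPKM, and Vav1 held 81.6 ± 1.07% of the Vav family at 80.96, 78.2 and 80.2 FPKM. Rac2, the Rac GTPase of blood cells, was at 387, 429.9 and 399.5 FPKM and Rac1 at 142, 143 and 151 FPKM. Rac2 was above Rac1 in each library, a log2 ratio of 1.47 ± 0.10, and was not called leading.

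Other signalling families had no clear first member. Cbl, a ubiquitin ligase that dampens the receptor signal, was at 21.8, 22.8 and 18.01 FPKM and its paralog Cblb at 21.5, 22.6 and 18.4 FPKM, a log2 ratio of 0.00 ± 0.02. The 3 calmodulin genes, which encode the same protein, lay between 144 and 198 FPKM. Nfatc3 at 57.1, 50.01 and 45.7 FPKM and Nfatc1 at 48.8, 50.01 and 46.3 FPKM overlapped, while Nfatc2 was below both at 18.3, 17.7 and 19.5 FPKM. Runx3 at 21.4, 17.9 and 22.1 FPKM and Runx1 at 18.6, 18.4 and 17.1 FPKM overlapped too. The STAT family was spread over several members, with Stat6, Stat5b and Stat3 all above 50 FPKM and Stat4 at 13.5, 11.4 and 11.8 FPKM. Stat5b, which acts below the interleukin 2 receptor, was at 64.5, 66.5 and 62.6 FPKM and its close paralog Stat5a at 40.5, 41.05 and 39.3 FPKM, with no overlap.

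Among transcription factor families, 12 of 41 had a leading member. Ets1 exceeded Ets2, at 10.7, 12.1 and 11.4 FPKM, by a log2 ratio of 4.99 ± 0.13. Bcl11b exceeded Bcl11a, a B cell and progenitor factor, by 5.90 ± 0.29, and Hif1a exceeded Epas1 by 4.07 ± 0.16. Tcf7 led Lef1 by 2.34 ± 0.05. The Foxp family had no leading member, since Foxp4 at 46.2, 47.01 and 45.997 FPKM and Foxp1 at 40.9, 42.3 and 35.6 FPKM stood beside Foxp3, which held 52.6 ± 1.5% of the family. Counted per read the first member of that family was Foxp1, a longer gene, and in 23 of the 143 families the first member differed between the 2 ways of counting. In the Ikaros family Ikzf1 was first, and Ikzf3, Ikzf2 and Ikzf4 followed, with Ikzf4, also called Eos, at 28.8, 29.4 and 25.2 FPKM. Ikzf3, at 56.2, 53.7 and 47.4 FPKM, overlapped with Ikzf2.

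**Figure D4:**
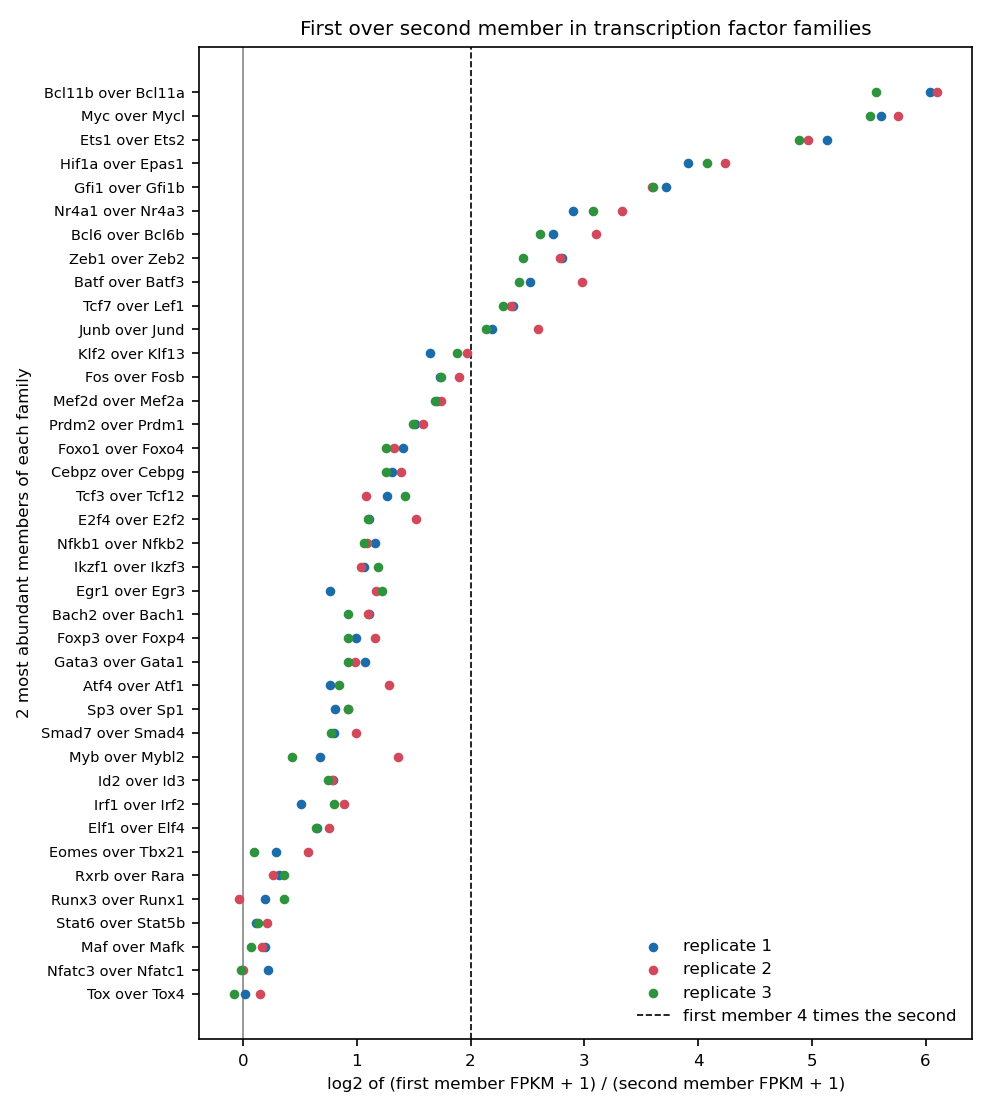
Log2 of the first member's FPKM plus 1 over the second member's FPKM plus 1, for 39 of the 41 transcription factor families in the 3 wild-type libraries. The families right of the dashed line (4 times) in all 3 libraries run from Bcl11b over Bcl11a at a mean of 5.90 to Junb over Jund at 2.31, and the Tox and Tox4 pair sits around 0.

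The families of the genes that the series deletes differed in how even they were in wild-type cells. The first and second members were apart in MEF2 and class I HDAC and overlapped in DYRK. None of these families had a leading member. Mef2d was at 40.9, 46.6 and 37.5 FPKM and Mef2a at 11.8, 13.2 and 10.9 FPKM, a log2 ratio of 1.71 ± 0.03, while Mef2c was at 0.302, 0.571 and 0.554 FPKM and Mef2b at 0.145, 0.112 and 0.121 FPKM. Mef2c and Mef2b stayed under 1 FPKM in each library. Hdac1 was at 117, 118 and 122 FPKM and Hdac2 at 28.7, 27.7 and 28.4 FPKM, both class I histone deacetylases, a log2 ratio of 2.03 ± 0.04. Hdac3 was at 19.996, 20.4 and 22.4 FPKM. Hdac7 was the leading class IIa deacetylase, the class that MEF2 proteins bind, at 80.7, 88.4 and 79.95 FPKM against 11.4, 11.4 and 12.7 FPKM for Hdac5. Of the dual-specificity DYRK kinases, Dyrk2 was at 31.8, 29.8 and 27.8 FPKM and Dyrk1a at 28.6, 28.4 and 25.99 FPKM, with overlapping ranges, and Dyrk1b was at 6.74, 7.54 and 6.73 FPKM. Rcor1, a scaffold that joins class I deacetylases to a histone demethylase, was at 16.1, 16.1 and 15.2 FPKM, above Rcor3 at 4.69, 6.02 and 4.21 FPKM. Of other chromatin enzymes, Dnmt1 was at 50.2, 40.1 and 56.3 FPKM against 16.4, 15.6 and 15.1 FPKM for Dnmt3a, and Tet3 was at 16.3, 16.1 and 13.8 FPKM against 3.74, 4.31 and 3.61 FPKM for Tet2.

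Cytoskeletal, translation and metabolic families held several of the widest ratios. Cfl1, which severs actin filaments, was at 1169.6, 1120.5 and 1278 FPKM and Cfl2, its muscle paralog, at 3.17, 4.497 and 3.101 FPKM. Pfn1, a profilin, was at 741, 787 and 838 FPKM and Pfn2 at 2.56, 2.86 and 2.99 FPKM. Eef1a2, expressed in nerve and muscle, was listed at 0, 0.0241 and 0 FPKM. Of the glycolytic enzymes, Pkm was at 439, 386 and 507 FPKM and Pklr at 0.0501, 0.0346 and 0 FPKM, and Aldoa at 259.7, 245 and 297 FPKM with Aldoc at 1.43, 1.101 and 1.65 FPKM. Hk1 was at 54.7, 51.3 and 56.5 FPKM and Hk2, an inducible hexokinase, at 3.25, 2.02 and 3.53 FPKM. Ldha held 92.7 ± 1.00% of the lactate dehydrogenase family. In contrast, the glucose transporters Slc2a1 at 16.8, 14.4 and 15.8 FPKM and Slc2a3 at 13.2, 13.1 and 13.3 FPKM differed by a log2 ratio of 0.23 ± 0.10. Of the survival proteins, Mcl1 was at 215, 223 and 198 FPKM and Bcl2 at 42.9, 45.8 and 33.6 FPKM, a log2 ratio of 2.36 ± 0.14. Of the D cyclins, which start the cell cycle, Ccnd2 was at 105, 105 and 94.3 FPKM, Ccnd3 at 40.6, 40.1 and 43.5 FPKM and Ccnd1 at 0.752, 0.927 and 1.33 FPKM. Tgfb1 exceeded Tgfb3 by a log2 ratio of 6.49 ± 0.06.

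Few genes differed much between the 3 wild-type libraries. Of 8160 genes averaging at least 5 FPKM, 252 (3.09%) had a highest library over 2 times the lowest. Immunoglobulin genes and segments made up 135 of the 252, and 128 of these were highest in replicate 2. A further 19 were T cell receptor genes, 89 were protein-coding and 9 were of other kinds. Of the 89 protein-coding genes, 67 were highest in replicate 3 and 50 were lowest in replicate 2. Without replicate 2 the count of varying genes was 85, of which 43 were immunoglobulin genes, without replicate 3 it was 164, and without replicate 1 it was 191. As background, among 11357 genes averaging 1 FPKM or more, 25.3%, 39.8% and 34.9% were highest in replicates 1, 2 and 3, and 31.8%, 31.5% and 36.8% were lowest there.

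Transcripts of antibody-secreting cells were highest in replicate 2. Immunoglobulin genes and segments held 0.974%, 2.70% and 1.14% of the summed FPKM. Igkc, the kappa light chain constant region, was at 1144, 3423 and 1334 FPKM, Igha, the constant region of immunoglobulin A, at 432, 1136 and 319 FPKM and Jchain, which joins immunoglobulin A into dimers, at 141, 411 and 152 FPKM. Of the 8 plasma cell genes, 7 were highest in replicate 2, beside 39.8% of all genes. Mzb1, a chaperone of antibody assembly, was at 6.91, 20.5 and 11.3 FPKM, and Sdc1, the surface marker CD138, at 1.61, 2.77 and 1.44 FPKM. B cell markers went another way, with 6 of the 8 averaging 1 FPKM or more highest in replicate 3, beside 34.9% of all genes. Il10 and the immediate early genes were also highest in replicate 2. The part of other cells in these values was not tested.

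Granulocyte and red cell transcripts were lowest in replicate 1. S100a8, a calcium-binding protein of neutrophils, was at 2.598, 32.7 and 76.1 FPKM and its partner S100a9 at 2.34, 45.04 and 76.5 FPKM. Ngp, a neutrophil granule protein, was at 0.558, 12.7 and 28.9 FPKM and Camp, an antimicrobial peptide, at 0.484, 5.27 and 14.6 FPKM. Lyz2, a lysozyme of myeloid cells, was at 2.87, 15.6 and 34.3 FPKM. The haemoglobin chain Hba-a1 was at 12.9, 68.6 and 164 FPKM, the chain Hbb-bs at 7.86, 79.3 and 166 FPKM, and Alas2, which starts haem synthesis in red cells, was at 0.452, 2.12 and 4.08 FPKM. Haemoglobin genes together held 0.00541%, 0.0356% and 0.0779% of the summed FPKM. Replicate 1 was the lowest for each of these genes. All of them but Alas2 are among the genes of widest ratio, so the size of their differences was selected for. In the whole lists, all 3 granulocyte markers and all 6 erythroid genes averaging 1 FPKM or more were lowest in replicate 1. So were 7 of 8 such myeloid and dendritic markers, beside 31.8% of all genes. Of the windows of Hba-a1, 57.03% are shared with another gene, so its split from Hba-a2 at 2.01, 11.1 and 20.8 FPKM is uncertain.

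A group of eye lens genes was read in all 3 libraries. Crystallins are the main proteins of the lens, and 13 of 16 listed here averaged over 5 FPKM. Cryaa was at 42.8, 68.9 and 37.6 FPKM, Crygb at 31.2, 60.3 and 15.7 FPKM, Crygd at 18.9, 45.6 and 11.5 FPKM and Crybb2 at 18.04, 40.6 and 19.5 FPKM. Of the 15 that averaged 1 FPKM or more, 15 were highest in replicate 2 (39.8% of all genes were). Of these, 12 were lowest in replicate 3 (36.8% of all genes were). The crystallins lie on 6 chromosomes, most of them on chromosomes 1 and 5. Between 0% and 32.9% of their windows are shared with another gene. Other genes of the lens were low, with 1 of 10 reaching 1 FPKM in all libraries. Mip, a lens water channel, was at 0.475, 0.868 and 0.503 FPKM, and Bfsp2, a lens filament protein, at 0.204, 0.272 and 0.227 FPKM. The crystallins were noticed after their values were seen, and the lens list was added then. The source of these transcripts was not tested.

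**Figure D5:**
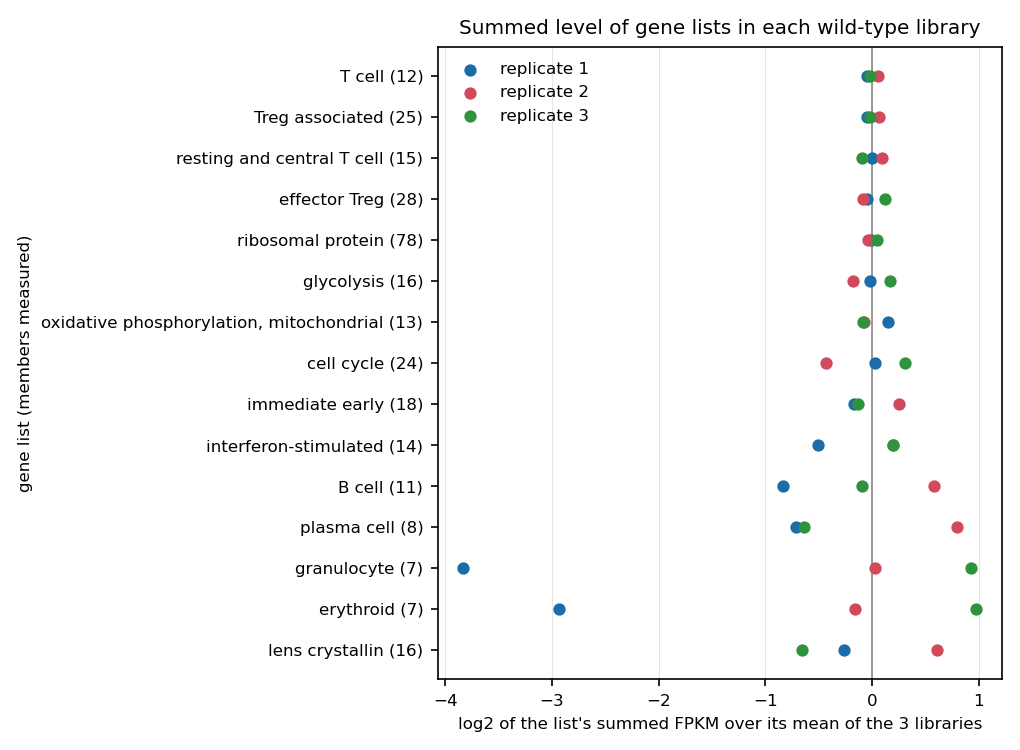
Log2 of the summed FPKM of each gene list over its mean of the 3 wild-type libraries, with the number of genes measured in brackets. T cell, Treg-associated and ribosomal protein lists lie close to 0 in all libraries, and granulocyte and erythroid lists lie far below 0 in replicate 1.

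Genes of proliferation moved together between the libraries. All 24 listed cell cycle genes were highest in replicate 3 (34.9% of all genes were) and lowest in replicate 2 (31.5%). Pcna, the sliding clamp of DNA replication, was at 188, 162 and 215 FPKM, Top2a, a topoisomerase of dividing cells, at 55.2, 31.4 and 64.6 FPKM and Cdc20, an activator of mitotic exit, at 35.7, 22.7 and 53.9 FPKM. The median ratio of highest to lowest library over the list was 1.83, beside 1.18 over all genes averaging 1 FPKM or more. Of the 16 glycolysis genes, 14 were highest in replicate 3 (12 when each library was rescaled to the same sum) and 15 were lowest in replicate 2. Gapdh was at 765, 705 and 917 FPKM and Ldha at 428, 375 and 496 FPKM. Of the 78 ribosomal protein genes, 58 were highest in replicate 3 (34.9% of all genes were), with a median ratio of 1.07. Replicate 3 also had the largest summed FPKM, and this count was not repeated with each library rescaled to the same sum. Effector Treg genes had a median ratio of 1.22, and 15 of 28 were highest in replicate 3, beside 34.9% of all genes. Lgals1, a galectin, at 256, 222 and 303 FPKM was among them. Of the 15 resting and central T cell genes, 11 were lowest in replicate 3 (36.8% of all genes were), among them Tcf7 and Ccr7.

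Immediate early and interferon-stimulated genes marked 2 other differences. All 16 immediate early genes that averaged 1 FPKM or more were highest in replicate 2 (39.8% of all genes were), with a median ratio of 1.28. Dusp2, a phosphatase of activated lymphocytes, was at 164, 215 and 163 FPKM and Egr1, a growth-response factor, at 26.7, 37.7 and 31.9 FPKM. These genes are known to be induced within minutes of a stimulus. Of 13 interferon-stimulated genes averaging 1 FPKM or more, 12 were lowest in replicate 1 (31.8% of all genes were), with a median ratio of 2.21. Ifit3, an antiviral protein, was at 6.84, 23.2 and 24.4 FPKM, Irf7, the factor that amplifies interferon, at 18.7, 41.4 and 37.3 FPKM and Isg15, a ubiquitin-like protein, at 18.5, 43.2 and 40.2 FPKM. Ifit2 at 17.6, 17.2 and 17.3 FPKM did not share that pattern. 

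Some genes had nearly equal values in the 3 libraries and were picked here for their small spread. Rps29, a ribosomal protein, was at 2327, 2318 and 2329 FPKM, a coefficient of variation of 0.251%. Unc13d, needed for granule release, was at 54.8, 54.8 and 54.6 FPKM, and Dap3, a mitochondrial ribosomal protein, at 20.2, 20.2 and 20.2 FPKM. Their coefficients of variation were 0.226% and 0.161%. Read counting alone would give class medians of 2.26% at 10 to 100 FPKM and 0.414% at 1000 FPKM or more. Spreads below these, picked from many genes in 3 libraries, do not show that a gene is held constant. Il2rb varied by 1.29% and Cd3g by 1.69%, less than the median of 6.75% for genes of 100 to 1000 FPKM. Ctla4, at 17.1%, and Junb, at 23.7%, varied more than that median. Vmn1r196, annotated as a vomeronasal receptor, was listed at 33.4, 0 and 32.3 FPKM, so it was at 0 in replicate 2 alone.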

How the data were processed

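RNA was measured in 3 wild-type Treg libraries, which the series text calls independent biological replicates, so the spread given is that between these samples. Per the submitters' processing notes, reads were aligned to mm10 and counted with STAR and HTSeq; versions, strand setting and annotation release are not given in the sources used here. Levels deposited by the authors were read as FPKM. The unit was inferred from the values. Multiplying low values by exon length gave whole steps of 1 read in all 3 libraries for 4117 of 8875 low genes (46.4%). Depth was estimated from these steps. For the other low genes the exon lengths used here did not give whole reads, and the results per read rest on the same lengths. Intervals on depth would cover counting error only. The members and all lists were chosen with earlier results of these data known. Symbols, positions and exon lengths came from GENCODE M21 and matched 34490 of 35275 identifiers (785 had none). A gene was expressed at 1 FPKM or more in all 3 libraries. Ratios within families used log2(FPKM + 1), which understates ratios of low genes. Named genes were the 4 Treg markers, the 30 most abundant coding genes, the 20 first transcription factors and receptors, first, second and silent family members, the 20 genes of widest ratio, and list members. Genes outside that rule (the crystallins, the noncoding and short segments, the mitochondrial and steady genes) were named after their values were seen. Windows of 150 bases, the read length, marked sequence shared between genes. Overlapping and antisense genes are uncertain without a strand setting. The depth estimate, the call of varying genes and the median-ratio scaling were checked on simulated data. The call of leading members was checked on a small made-up set, and the other counts were not checked in this way. Python 3.11.15, pandas 2.3.3, numpy 2.4.6 and matplotlib 3.10.9 were used. No test between groups was made. Some genes that the rule selects are not reported here.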

Additional observations from a re-analysis of the deposited data

How the results depend on the processing

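The share of the 30 most abundant genes was 11.8% per read and 20.6% per length. Families with a leading member numbered 45 at 4 times and 76 at 2 times. Genes that varied between libraries numbered 252, and 589 from an average of 1 FPKM, 135 at 3 times, and 85 to 191 when a library was left out (85 without replicate 2, 164 without replicate 3). Leaving out a library gave 11020 to 11074 expressed genes, 20.4% to 20.8% for the share of the first 30 and 45 to 46 leading families. All other alternatives tried for these 4 results (expression at 0.5 or 5 FPKM, scaling by median ratios or to equal sums, other pseudocounts, a filter on families, leaving out mitochondrial, immunoglobulin and haemoglobin genes) stayed within 1.5 times the count or 1 SD of the share. A further 34 values of Treg markers and list patterns, added after seeing the data, moved in 0 cases by that measure. They could hardly have moved. The median-ratio scaling factors were 0.993 to 1.013, the markers differed little between libraries, and several list counts were already at their maximum. The 0 cases thus say little about how stable these values are. Genes under 0.0809 FPKM on 2000 bases rest on fewer than 3 reads in at least 1 library. No paired analysis was possible because a single group is described and no groups were compared.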
